A study of Saccharomyces cerevisiae with 50 samples.

Results

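The YRF1 genes are 7 near-identical open reading frames, YRF1-1 (YDR545W), YRF1-2 (YER190W), YRF1-3 (YGR296W), YRF1-4 (YLR466W), YRF1-5 (YLR467W), YRF1-6 (YNL339C) and YRF1-7 (YPL283C), chosen here by name. All 7 had a row among the 6204 open reading frames of the value table. They were followed in budding yeast of the laboratory strain W303, held in G1 with the mating pheromone alpha factor, released into the rich medium YEPD and sampled every 5 min from 0 to 120 min over 2 cell cycles. Total RNA of each of the 25 time points was hybridised against RNA of an asynchronous YEPD culture on 2 arrays, with the sample in Cy5 on one and in Cy3 on the other. No label names a second culture, and the dye-swap arrays are technical repeats, so p-values here rest on how time points of 1 course scatter, which may be partly technical.

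YRF1 encodes a helicase-like protein, the Y'-helicase. The gene lies inside the Y' element, a long repeat found at many, but not all, yeast chromosome ends, next to the telomeric repeats. In yeast cells that have lost telomerase, Y' elements can multiply and keep the ends going, and Y'-helicase is made strongly in such survivors. Genes beside telomeres can also be silenced by the Sir proteins. In the gene order of the reference assembly R64, the copies sit on chromosomes IV, V, VII, XII (YRF1-4 and YRF1-5), XIV and XVI. YRF1-2 and YRF1-4 were the frames at position 2 from their end, and the other copies were the outermost annotated protein-coding frames. Because the copies are so alike, a spot made for one of them can bind RNA of another, and of other Y' elements. The 7 rows therefore show the family, not 7 separate genes. An eighth copy named in that assembly, YOR396W, was not analysed here.

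Values are log2 ratios of sample over asynchronous culture, so 0 means the level of the asynchronous culture. The base of the deposited logarithm (taken as 10) and the direction of the ratio are inferences. The direction is likely rather than stated: all 10 genes of a list of MATa-specific and pheromone-induced genes, such as the a-factor gene MFA1, lay above 0 at 0 min on both arrays, between 0.73 and 5.79 log2 units as pair means. Over all frames, Pearson r between the arrays of a time point ran from 0.196 to 0.673, with a median of 0.472 (25 pairs). Each array's root mean square deviation from the mean of its neighbours in time lay between 0.205 and 1.03 log2 units, highest at 45 min with the sample in Cy3 and next at 105 min with the sample in Cy5 (0.809). No value of the 350 for the YRF1 copies was missing or at the deposited limit.

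The copies were low at release, lay above the asynchronous level by 10 min, were highest at 15 min and sank to their lowest at 50 min. At 0 min the pair means of the 7 copies lay between -0.77 and -0.44 log2 units, and at 5 min between -0.60 and -0.36. At 10 min they lay between 0.75 and 0.996, and at 15 min between 1.12 and 1.39. None of the 7 was above 0 at 5 min, and all 7 were at 10 min. The copies share arrays and near-identical sequence, so these are not 7 separate observations. The share of all frames with such a rise was not counted. The mean of the 7 at 15 min was 1.24 ± 0.11 log2 units (SD over 7 copies, which are not replicates), 2.37 times the asynchronous level. At 50 min it was -0.84 ± 0.07, or 0.559 of that level.

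YRF1-6 had the highest pair mean at 15 min, with 1.39 log2 units with the sample in Cy5 and 1.38 with it in Cy3. YRF1-7 had 1.36 with the sample in Cy5 and 1.25 with it in Cy3, and YRF1-2 had 1.16 and 1.55 in the same order. The order of the copies at this time was not the same on the arrays of the pair: YRF1-2 was the lowest of the 7 with the sample in Cy5 and the highest with it in Cy3. YRF1-1 had 1.17 with the sample in Cy5 and 1.25 with it in Cy3. YRF1-3 had 1.32 and 0.92, YRF1-4 had 1.32 and 1.06, and YRF1-5 had 1.20 and 1.06, again with the Cy5 value first. All 7 copies were highest at 15 min of the first cycle in each dye orientation.

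At 50 min, the low point of the pair means for all 7 copies, YRF1-7 had -0.71 log2 units with the sample in Cy5 and -1.17 with it in Cy3. YRF1-1, the least low there, had -0.70 with the sample in Cy5 and -0.78 with it in Cy3. From 50 min to 15 min the pair means of the first cycle spanned 1.95 log2 units for YRF1-1, a 3.86-fold range, and 2.25 for YRF1-7, a 4.75-fold range. The other 5 copies lay between these.

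**Figure D1:**
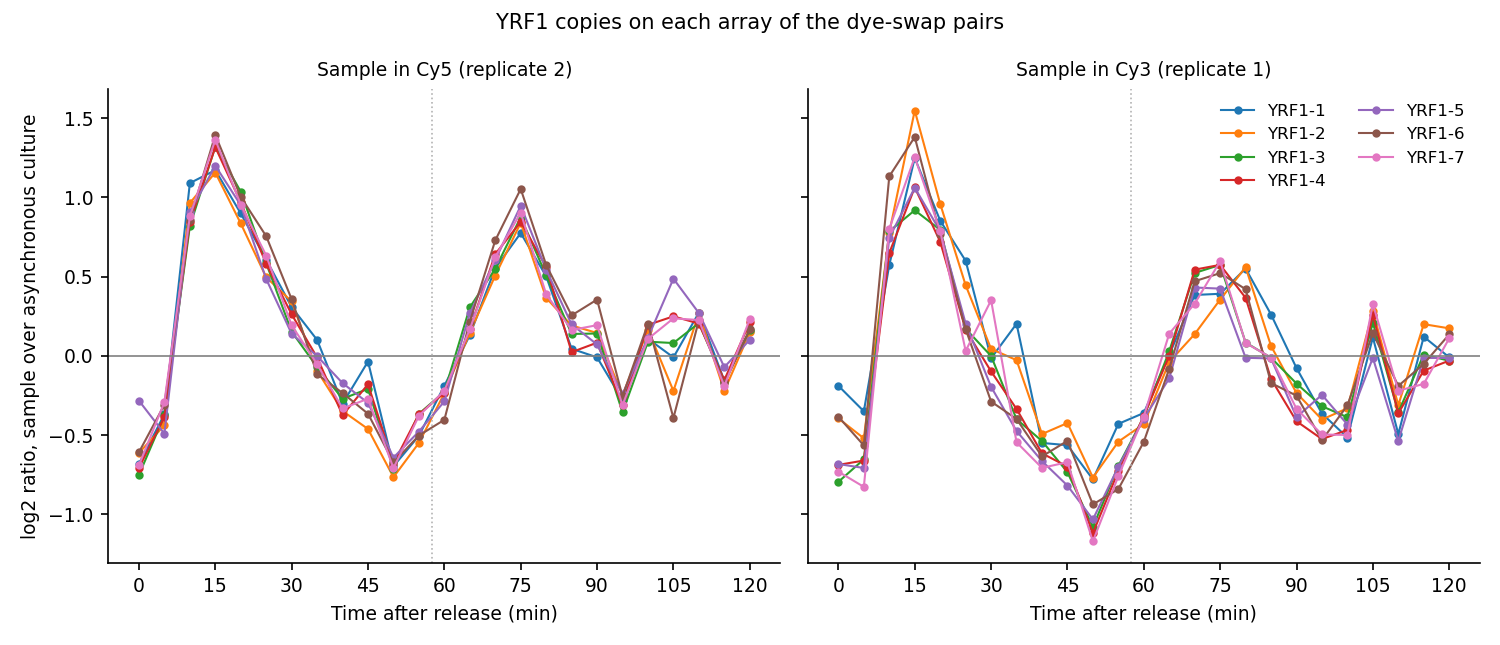
Log2 ratio of sample over asynchronous culture (vertical axis) against minutes after release (horizontal axis) for the 7 YRF1 copies, on the arrays with the sample in Cy5 (left) and in Cy3 (right). Each point is a single array value, and the dotted line parts the cycles. All 7 copies are highest at 15 min in both panels, and a lower rise follows around 75 min.

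In the second cycle the copies rose again, to a lower peak. The pair means of all 7 were highest at 75 min, between 0.58 (YRF1-1) and 0.79 log2 units (YRF1-6), with a mean of 0.69 ± 0.08 (SD over 7 copies), 1.61 times the asynchronous level. With the sample in Cy5, YRF1-6 had 1.05 log2 units at 75 min and YRF1-1 had 0.77. With the sample in Cy3, YRF1-6 had 0.52 and YRF1-1 had 0.39. All 7 copies were highest at 75 min with the sample in Cy5. With the sample in Cy3, 4 were highest at 75 min, 2 at 80 min (YRF1-1 and YRF1-2) and 1 at 70 min (YRF1-5). The ranges of the second cycle, 0.90 to 1.26 log2 units or 1.87- to 2.40-fold, lay below all those of the first. How many of all frames had a smaller range in cycle 2 was not counted, so this is a description of the copies alone.

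A cosine with a period of 62 min and a linear term was fitted to each of the 6204 frames. The period was taken from 60 genes of late G1, DNA replication, histone and mitotic lists, none of them a YRF1 gene. All 7 copies passed limma's F test for the cosine (adjusted p from 3.82e-04 for YRF1-6 to 0.0019 for YRF1-7, Benjamini-Hochberg over all frames), against 35.3% of all frames. In each dye orientation alone all 7 passed as well, against 17.7% of all frames that passed in both, with a highest adjusted p of 0.0106 in the limma test with the sample in Cy3 (YRF1-2). The fitted amplitude, the distance from mean to peak, was 0.64 ± 0.11 log2 units for YRF1-6 and 0.54 ± 0.10 for YRF1-1 (SE, n = 25 time points), the highest and the lowest of the 7. Over all frames the median amplitude was 0.14 log2 units, and 306 frames (4.93%) had an amplitude at least that of YRF1-1. Fitted peaks lay between 16.2 ± 1.6 min (YRF1-6) and 17.1 ± 1.66 min (YRF1-1). Each SE belongs to the fit of a single copy, the copies share arrays, and differences in time between copies were not tested. At 62 min the fit accounted for 0.562 of the variance of the 7-copy mean (R squared), and at 56 min, its own best period, for 0.658.

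The copies followed the same course more closely than they differed from each other. Over the 25 pair means, Pearson r between copies lay between 0.957 (YRF1-1 and YRF1-7) and 0.990 (YRF1-3 and YRF1-4) in 21 pairs, which share arrays and near-identical sequence. The 7-copy mean varied over time with an SD of 0.52 log2 units, while the SD over the 7 copies at a time point had a median of 0.08. Deviations of single copies from that mean were weakly related between the dyes. The Pearson r of a copy's deviation with the sample in Cy5 and with it in Cy3 lay between -0.30 (YRF1-2) and 0.39 (YRF1-4) over 25 times. The SD over the copies was highest at 105 min with the sample in Cy5, at 0.30 log2 units, on an array with a title batch of its own. There YRF1-5 had 0.49 log2 units and YRF1-6 had -0.39, against -0.01 and 0.14 with the sample in Cy3.

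The time of the peak was set beside genes of late G1 and S phase. CLN2, a G1 cyclin gene, had its fitted peak at 24.6 ± 0.93 min, and RNR1, which encodes the large subunit of ribonucleotide reductase, at 22.7 ± 1.28 min (SE, n = 25 time points). The histone gene HTA1 followed at 33.1 ± 0.78 min. These lie 8.16, 6.30 and 16.7 min after the median YRF1 peak of 16.4 min, and no test of these differences was run. The YRF1 peak time depends on the cycle fitted, at 18.3 to 19.4 min from cycle 1 alone and 11.1 to 13.7 min from cycle 2 alone. At 10 min, when the YRF1 mean had reached 0.84 log2 units, CLN2 was at -0.63, RNR1 at 0.78 and HTA1 at -3.16. In cycle 1, CLN2 and RNR1 were both highest at 20 min, one sampling step after YRF1. In cycle 2, RNR1 was highest at 75 min, the same time as all 7 YRF1 copies, and CLN2 at 85 min.

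**Figure D2:**
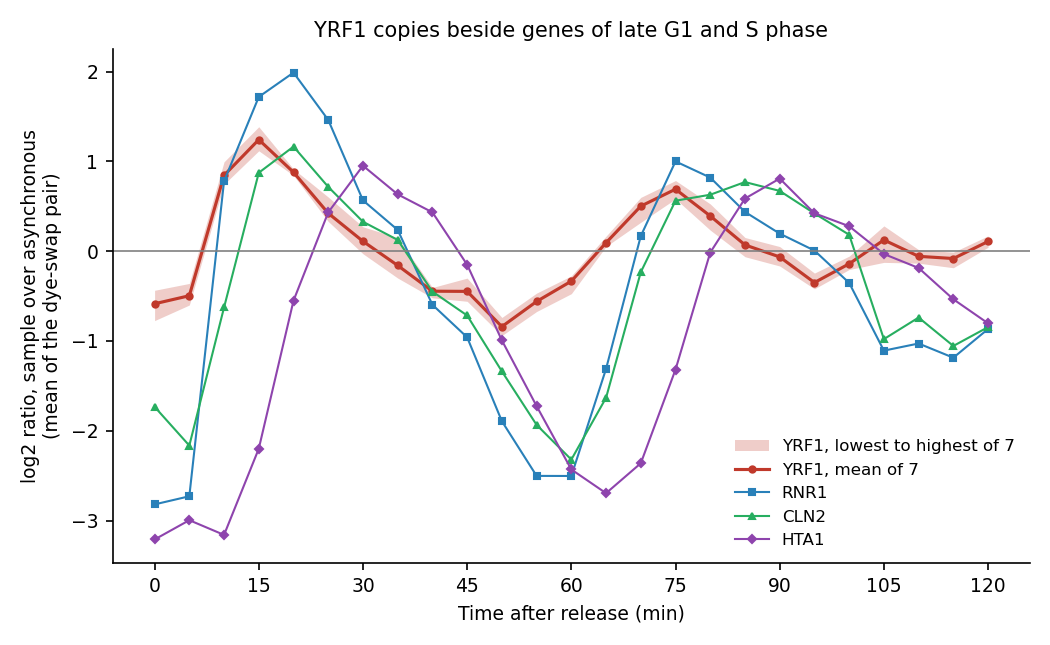
Mean log2 ratio of the dye-swap pair (vertical axis) against minutes after release (horizontal axis) for the mean of the 7 YRF1 copies, with a band from the lowest to the highest copy, and for RNR1, CLN2 and HTA1. In cycle 1, YRF1 is highest at 15 min, RNR1 and CLN2 at 20 min and HTA1 at 30 min. In cycle 2, YRF1 and RNR1 are both highest at 75 min, and YRF1 has the smallest swing of the 4 curves.

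Among 18 DNA replication genes, 17 were periodic by the limma F test, and all 17 had fitted peaks after the latest YRF1 copy, with a mean of 22.9 min (circular SD 2.27 min). In the pair means of cycle 1, 2 of the 18 were highest by 15 min, 14 at 20 min and 2 later. Of 15 periodic G1 regulators of 16 measured, 13 had fitted peaks after every YRF1 copy and 1 before. In the pair means of cycle 1, 5 of the 16 were highest by 15 min, 9 at 20 min and 2 later. All 9 histone genes were periodic with a mean peak at 32.9 min. Over all frames, 123 periodic frames (5.62%) were highest at 15 min in the first cycle, and 391 at 20 or 25 min. Fitted peaks after every YRF1 copy were common, in 1702 of the 2190 periodic frames. Here after means later than the latest copy within the 62 min period counted from release. Most of that period lies after the copies, so the count of 1702 depends on where the period is cut.

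The frames with courses most like the YRF1 mean were other Y' frames. By Pearson r over the 25 pair means, which share arrays, the closest were YEL077C (0.995), YLL066C (0.995), YML133C (0.993), YHL050C (0.992), YJL225C (0.990), YHR219W (0.989), YIL177C (0.983) and YBL113C (0.977). YFL068W (0.976), which was not on the Y' list, and YLL067C (0.943) completed the first 10. YFL068W was the outermost annotated frame of its end of chromosome VI. All 10 were highest at 15 min. The next 5, named after their values were seen, were SPT21 (0.942), which is needed for full histone gene expression, YJR115W (0.939), the DNA polymerase epsilon subunit gene DPB2 (0.930), the mismatch repair gene PMS1 (0.919) and STB1 (0.904), whose product binds the regulators of G1 transcription. Counting these, 16 frames outside the family had an r of at least 0.9, and the median over all other frames was -0.05. At the other end stood the tRNA methylation gene TRM11, with an r of -0.887.

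Of 34 frames listed as other Y' element frames, 30 were measured, and 29 of these were periodic by the limma F test, 23 in each dye orientation alone. Their median amplitude was 0.53 log2 units. They largely fell apart by their place in the R64 gene order, a split made after the values were seen and given without a test. The 5 frames with no entry there had r with the YRF1 mean from 0.155 to 0.864 and are not part of the split. The 8 that were the outermost annotated frame of their end had correlations with the YRF1 mean from 0.943 to 0.995. At 10 min they lay between 0.68 and 0.89 log2 units, and at 15 min between 1.01 and 1.30. Of 17 frames further in, YLL066C (r = 0.995) followed the same course, and the other 16 had r from 0.578 to 0.745. Of the YRF1 copies, YRF1-2 and YRF1-4 are not outermost either and had r of 0.992 and 0.993, so place alone does not sort the courses.

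These 16 inner frames lay lower than the outermost frames at 10 and 15 min. At 10 min their pair means lay between -0.85 and 0.22 log2 units, and 1 of 16 was above 0. At 15 min they lay between -0.04 and 0.95, with a mean of 0.33, against a mean of 1.19 for the outermost frames. YLL066C was left out of these 16 because its course matched that of YRF1, so the contrast in part restates that choice. With YLL066C, 2 of 17 were above 0 at 10 min, and the mean at 15 min was 0.38. At 25 min the means were close, at 0.36 log2 units for the 16 inner frames and 0.39 for the outermost. The gap came and went over the course. It was small at 50 min too (-0.68 against -0.79, inner frames first). The means stood apart at 0 min (-1.19 against -0.62), 30 min (-0.26 against 0.07) and 60 min (-1.19 against -0.33). Late in the course the inner frames averaged -1.23 log2 units at 115 min, against -0.03 for the outermost. YFL067W, an inner frame, had the largest amplitude of the list (0.83 ± 0.12 log2 units, SE, n = 25 time points, adjusted p = 4.83e-05 in limma) with a fitted peak at 18.4 min. Inner frames were shorter, with a median of 630 bases against 3776 for the outermost, and their values repeated less well, with a median r between dye orientations of 0.614 against 0.922. The part of length and repeatability in this split was not tested. YDR543C, which has no entry in that assembly's table, was the member of the list that was not periodic (adjusted p = 0.646 in limma) and was highest at 105 min.

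**Figure D3:**
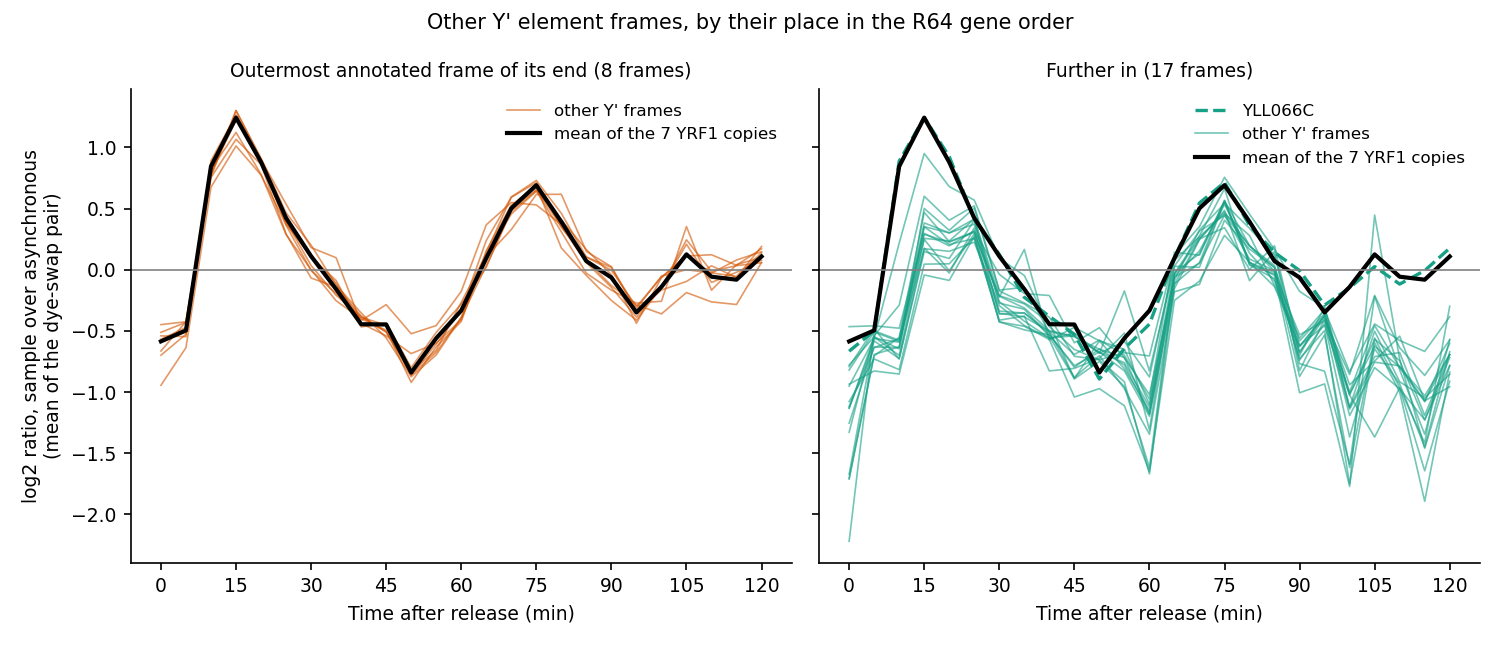
Mean log2 ratio of the dye-swap pair (vertical axis) against minutes after release (horizontal axis) for other Y' frames (thin lines) that are the outermost annotated frame of their chromosome end (left, 8 frames) or lie further in (right, 17 frames), with the mean of the 7 YRF1 copies in black. The outermost frames and YLL066C (dashed) follow the YRF1 curve, while the other 16 inner frames all lie below it at 10 to 20 min and at 110 to 120 min.

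The nearest measured neighbours outside the Y' frames followed the YRF1 course less closely. PAU10, a seripauperin gene beside YRF1-1, had an amplitude of 0.07 ± 0.07 log2 units (adjusted p = 0.679 in limma), and YER188W, near YRF1-2, 0.10 ± 0.12 (adjusted p = 0.751). COS6, beside YRF1-3, was periodic at 0.25 ± 0.04 log2 units with a peak at 24.8 min (adjusted p = 2.02e-04 in limma). PAU4, the nearest for both copies on chromosome XII, and PAU22, beside YRF1-7, passed at 0.20 ± 0.06 and 0.12 ± 0.03 log2 units (adjusted p = 0.0475 and 0.0260 in limma). COS1, beside YRF1-6, had 0.51 ± 0.20 log2 units with a fitted peak at 17.5 min and did not pass (adjusted p = 0.135 in limma). The fitted peaks of YER188W and PAU10, which did not pass either, lay at 17.9 and 20.2 min. Those of PAU4 and PAU22 lay at 25.9 and 25.8 min. SEs are over 25 time points. The correlation of these neighbours with the YRF1 mean lay between 0.170 (PAU10) and 0.457 (COS6).

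Other subtelomeric families and genes that act at telomeres were described by counts, with 35.3% of all frames periodic and a median amplitude of 0.14 log2 units over all frames. Of 23 PAU genes, which encode small cell wall proteins, 10 were periodic by the limma F test. The median amplitude over the 23 was 0.12 log2 units. PAU8 was the most significant (0.21 ± 0.04 log2 units, peak at 20.5 min) but did not pass with the sample in Cy5 alone. In both dye orientations 1 of the 23 passed, against 17.7% of all frames. Of 11 COS genes, which encode membrane proteins of endosomal sorting, 8 were periodic, with a median amplitude of 0.25, COS5 leading with 0.28 ± 0.03 at 24.5 min. In both dye orientations 7 of the 11 passed. Of 20 genes for telomerase and telomere-end proteins, 9 were periodic, and 5 passed in both dye orientations. Among the 9 were the replication protein A genes RFA1 (1.01 ± 0.10 log2 units, peak at 22.1 min), RFA2 (1.01 ± 0.09, 24.04 min) and RFA3 (0.43 ± 0.05, 30.2 min). RFA1, RFA2 and RFA3 were also counted among the DNA replication genes. RIF1 (0.52 ± 0.08, 26.3 min), which limits telomere length, was periodic too.

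Of 15 genes of telomeric silencing, 6 were periodic, including the histone chaperone gene ASF1 (0.81 ± 0.11 log2 units, peak at 20.9 min) and the deacetylase gene HST1 (0.23 ± 0.03, 46.2 min). In both dye orientations 5 of the 15 passed. Of 14 genes of other DNA helicases and their partners, 9 were periodic, and 8 passed in both dye orientations. PIF1, a helicase that removes telomerase from ends, had 0.48 ± 0.06 log2 units with a peak at 26.5 min. SRS2, an anti-recombination helicase, had 0.53 ± 0.08 at 33.8 min, and RAD5, a repair helicase, 0.49 ± 0.08 at 20.5 min (SE, n = 25 time points for all genes named). In these 3 lists, every periodic gene but 2 had its fitted peak after all YRF1 copies. The COS and PAU genes called periodic all peaked after them too. Of the 2190 periodic frames among all frames, 1702 also peaked after every copy, so a later fitted peak, counted this way, is common. The count runs over the 62 min period from release, most of which follows the copies. It does not by itself place a gene after YRF1 rather than before its next rise. Mean fitted peaks of the periodic genes of these lists ran from 24.6 min (COS) to 30.9 min (telomeric silencing, circular SD 14.6 min).

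The second comparison asked whether the swing changed between the cycles, cycle 2 (60 to 115 min) against cycle 1 (0 to 55 min), with 12 time points each. The fitted amplitude was smaller in cycle 2 for all 7 copies. YRF1-7 had 0.27 ± 0.13 log2 units in cycle 2 and 0.88 ± 0.13 in cycle 1 (SE, n = 12 time points each), and YRF1-1 had 0.31 ± 0.10 and 0.79 ± 0.10 in the same order. limma's F test of whether the fitted cosine differs by cycle passed for 6 of 7 copies, with adjusted p from 0.0325 (YRF1-2) to 0.0488 (YRF1-5). YRF1-6, with 0.35 ± 0.13 in cycle 2 and 0.88 ± 0.13 in cycle 1, did not pass (adjusted p = 0.0824). Among all frames 15.3% passed, and 8.69% passed with a smaller amplitude in cycle 2. The test takes swing and timing together, and both differed in the fit. Counted into the 62 min period, fitted peaks lay between 11.1 and 13.7 min in cycle 2 (SE 3.37 to 4.98 min) and between 18.3 and 19.4 min in cycle 1 (SE 1.30 to 1.55 min), earlier in cycle 2 for all 7 copies. Neither was tested apart from the other.

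These calls lie close to the threshold and were not stable. In limma, 0 of 7 copies passed with the sample in Cy5 alone (adjusted p from 0.0750), and 3 of 7 with it in Cy3 alone. In the fits without 105, 110 and 115 min, without 0 to 15 min or, chosen after seeing the data, without 10, 15 and 20 min none of the 7 did (the last 2 settings remove the cycle 1 peak), and with single time points left out 0 to 7 passed. None passed without 20, 50, 85, 90, 110 or 115 min, and 1 to 3 passed without 0, 10, 15, 65, 80 or 95 min. The amplitude stayed smaller in cycle 2 in these settings that removed several times or a dye, with differences from -0.65 to -0.17 log2 units. Fitted to cycle 1 alone, the cosine passed limma's F test for all 7 copies (highest adjusted p = 0.00251), against 2461 of 6204 frames. Fitted to cycle 2 alone, it passed for YRF1-1 (adjusted p = 0.0428 in limma), against 1680 of 6204 frames. The other copies had adjusted p from 0.0741 (YRF1-6) to 0.167 (YRF1-7). A fit to 1 cycle cannot show that a rise recurs. For the arrays with the sample in Cy3 the titles' date batches coincide with the cycles, so batch and cycle cannot be told apart there. With the sample in Cy5 they nearly coincide: the 60 min array is the single array of cycle 2 that shares a batch with cycle 1.

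For comparison, RNR1 swung by an amplitude of 1.23 ± 0.27 log2 units in cycle 2 and 2.22 ± 0.27 in cycle 1 (SE, n = 12 time points each, adjusted p = 0.141 in limma), and CLN2 1.29 ± 0.19 and 1.45 ± 0.19 in the same order (adjusted p = 0.857). Of the 30 other Y' frames, 10 passed the cycle test, 8 of them with a smaller amplitude in cycle 2. Over all frames the shares were 15.3% and 8.69%. Spots of Y' frames can bind RNA of the YRF1 copies, so these calls are not separate observations.

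No difference in mean level between the cycles passed the test for any copy. YRF1-3 averaged 0.08 log2 units in cycle 2 and -0.04 in cycle 1, a fitted difference of 0.12 ± 0.15 (SE, n = 12 time points each, adjusted p = 0.596 in limma), the largest of the 7. YRF1-1 averaged 0.07 in cycle 2 and 0.09 in cycle 1, a difference of -0.02 ± 0.13 (adjusted p = 0.932 in limma). In limma 0 of 7 copies passed, and 0 at an unadjusted p under 0.05, against 20.1% of all frames, 9.72% higher and 10.3% lower in cycle 2. The standard errors lay between 0.13 and 0.17 log2 units, so differences of that size were not detectable in this course.

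**Figure D4:**
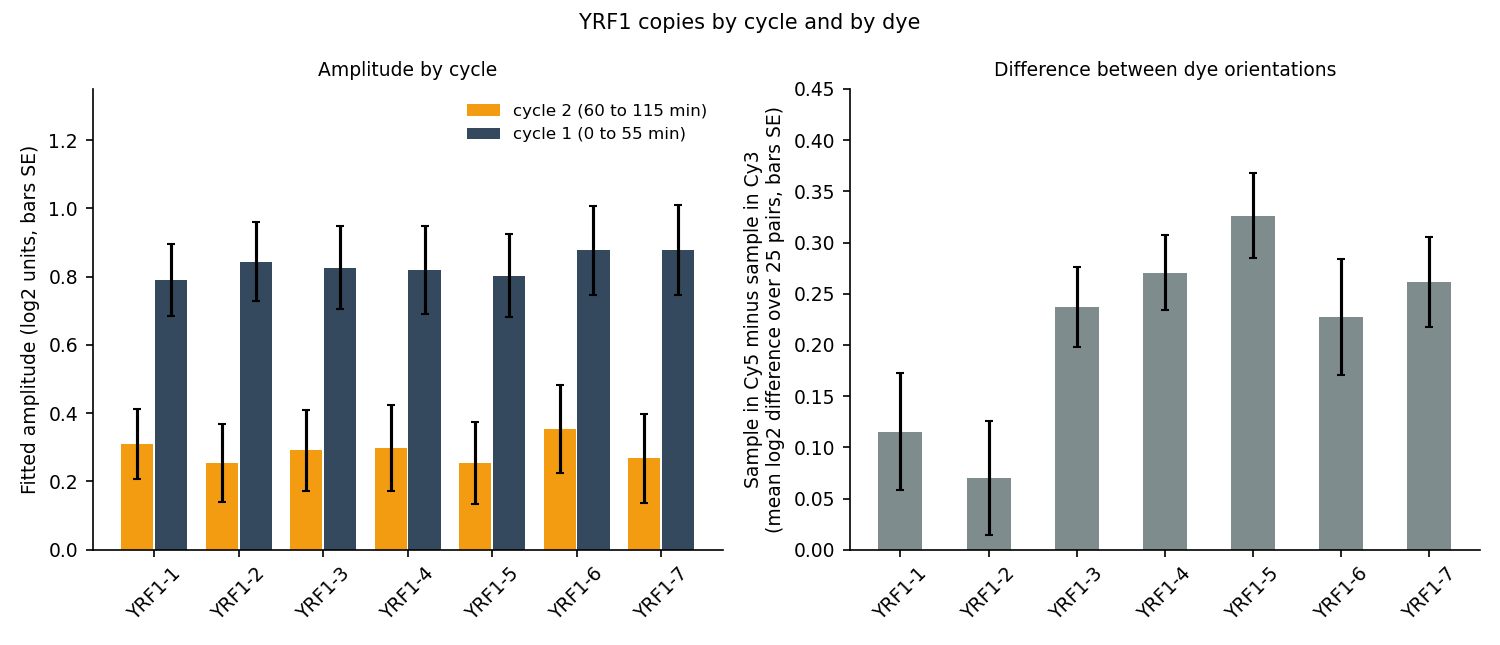
Left, fitted amplitude in log2 units (vertical axis, bars SE) for each YRF1 copy in cycle 2 and in cycle 1. Right, mean difference in log2 units between the values with the sample in Cy5 and in Cy3 (vertical axis, bars SE, 25 pairs) for each copy. The amplitudes in cycle 2 lie between 0.25 and 0.35 and those in cycle 1 between 0.79 and 0.88, and the dye difference is above 0 for all 7 copies.

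Values turned to sample over asynchronous culture were higher with the sample in Cy5 than in Cy3. YRF1-5 averaged 0.17 log2 units with the sample in Cy5 and -0.15 with it in Cy3, a difference of 0.33 ± 0.04 (SE, n = 25 pairs, adjusted p = 9.40e-07 in limma), and was higher in Cy5 in 24 of 25 pairs. YRF1-3, YRF1-4, YRF1-6 and YRF1-7 differed by 0.23 to 0.27 log2 units and passed too. YRF1-1 (0.11 ± 0.06, adjusted p = 0.102) and YRF1-2 (0.07 ± 0.06, adjusted p = 0.315) did not pass the limma test. Over all frames 46.6% passed, 32.3% higher in Cy5, so a dye difference is common on these arrays. The course itself repeated: Pearson r between the dye orientations over 25 times lay between 0.834 (YRF1-1) and 0.945 (YRF1-4).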

How the data were processed

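Per the labels, 50 two-channel arrays held a time course sample in one dye and an asynchronous culture in the other. The deposited values are log ratios, which the authors made in a way not stated, and which were read as log10 ratios of Cy5 to Cy3. They end at -2 and 2, a 100-fold limit in log10, and neither base nor direction is stated. Scanning, normalization and centring are not given in the sources used here. Array medians lay between -0.0046 and 0.0345 log10 units. No spot intensities were used, so no background filter was possible, and the number of arrays limits the precision.

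Of 6217 lines, 13 controls or incomplete names were left out. Symbols came from the R64 gene table (5704 of 6204 frames matched), used also for gene order and frame length, without coordinates. Values were converted to log2, those with the sample in Cy3 (replicate 1) were turned, those in Cy5 (replicate 2) were kept, and the pair was averaged. Within 1 orientation the lowest r between arrays was 0.0753 (Cy3) and 0.0466 (Cy5). Models were fitted in R 4.3.3 with limma 3.58.1 across all frames, with Benjamini-Hochberg adjustment, calling adjusted p under 0.05. The period was the whole minute from 40 to 90 with the highest mean R squared over 60 genes (0.720 at 62 min). Periodicity had a linear time term, and the cycle tests had none. Peak times carry delta-method standard errors. The fits were tested on simulated courses.

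The rule for named genes took all 7 copies, the 10 most alike frames, up to 4 passing members of each list, CLN2, RNR1 and HTA1, and the nearest neighbour outside the Y' frames. Members and lists were chosen with earlier results of these data known. The titles gave 2 date batches for the Cy3 arrays and 6 for the Cy5 arrays. Alternatives covered dye, period, trend, time points, limit values, scaling, correlated errors and batch.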

Additional observations from a re-analysis of the deposited data

Results flagged for a closer look

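The fitted cosine of 6 YRF1 copies differed between the cycles by the limma interaction test, which takes swing and timing together. The amplitude in cycle 2 minus that in cycle 1 was -0.48 log2 units for YRF1-1, -0.59 for YRF1-2, -0.54 for YRF1-3, -0.52 for YRF1-4, -0.55 for YRF1-5 and -0.61 for YRF1-7. The copies share RNA and arrays, so these are not 6 separate observations, and the calls depended on the time points used.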

How the results depend on the processing

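Periodicity of all 7 copies held in 13 of 14 settings and with each of the 25 time points left out in turn (7 to 7 called). The exception, chosen after seeing the data, was cycle 2 alone, with 1 called from 12 time points, against 1680 of 6204 frames. Fits to 1 cycle, with 2461 frames called in cycle 1 alone, cannot show that a rise recurs. Amplitudes lay between 0.25 and 0.88 log2 units. The amplitude call between cycles was held by 6 copies with centred arrays, 3 without replicate 2, 0 without replicate 1, 1 at a period of 60 min, and 0 without 0 to 15 min, without 105, 110 and 115 min or without 10, 15 and 20 min. Leaving out single time points gave 0 to 7. Over all frames that test called 951, against 693 without replicate 2 and 412 without replicate 1, 118 without 0 to 15 min, 460 without 105, 110 and 115 min and 363 without 10, 15 and 20 min. The level test called 1245 frames, against 717 without replicate 1 and 1102 without replicate 2. Of the copies it called 0, with each time point left out (0 to 0) and elsewhere, except 2 without 10, 15 and 20 min, a setting chosen after seeing the data that removes the cycle 1 peak and keeps that of cycle 2, so that the difference had to move up. The dye call of 5 copies was the same in 3 settings. The fits that leave out times or a dye hold fewer values, while the 60 min period uses all of them. The cause was not tested. Fitted peaks of the copies lay between 11.1 and 19.4 min over the 14 settings, the extremes being cycle 2 alone and cycle 1 alone. Centring moved the median of 1 array by over 0.1 log2 units (0.115). The arrays of a time point were averaged, and the dye test was paired within time points. The cycles are 2 stretches of 1 course, and their time points were not paired. A background filter was not run. With 25 time points of a single course, small differences between cycles stay below detection.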
